A study of Mus musculus with 6 samples.

Results

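The secreted Wnt antagonists described here are 7 genes, Sfrp1, Sfrp2, Sfrp4, Frzb, Wif1, Dkk2 and Dkk3, picked by name from the 35275 genes of an RNA-seq table of mouse aorta. The table held 6 libraries, 3 labelled wild-type and 3 labelled EC-Jag1KO, in which the Notch ligand Jagged1 is missing from endothelial cells, per the title of the series from mature endothelium. No source used here gives the Cre driver, the sex, the age or the strain, or says that each library was a different animal. The p-values below therefore cover only the variation among these 6 libraries, which may be technical in part. Levels are FPKM, fragments scaled to gene length and to the assigned reads of the library. This scaling allows comparison between genes and between libraries, but does not correct for differences in RNA composition between libraries.

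Wnt proteins are secreted, lipid-modified ligands that bind Frizzled receptors together with the co-receptors Lrp5 and Lrp6, and so stabilise beta-catenin, which drives target genes with TCF and LEF factors. Secreted antagonists act outside the cell in 2 ways. The frizzled-related proteins (Sfrp1, Sfrp2, Sfrp4 and Frzb, also called Sfrp3) carry a domain like the ligand-binding part of Frizzled and bind Wnt proteins, as does Wif1 through a domain of its own. Dickkopf proteins such as Dkk2 bind Lrp5 and Lrp6 instead, and Dkk3 is a divergent member of that family whose effect on Wnt signalling depends on context. In the vessel wall, Wnt signalling is known from work on endothelial barrier properties and on smooth muscle growth and calcification.

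The libraries held 19889910 to 25914325 reads in genes, and every antagonist but Dkk2 had at least 239 reads in each library. Smooth muscle markers were abundant, with Acta2 at 6173 to 7672 FPKM and Myh11 at 1197 to 1576 FPKM. The endothelial gene Cdh5 was at 17.3 to 30.9 FPKM. Markers of fat and blood were present and varied widely. The adipocyte gene Fabp4 was at 206 to 1274 FPKM, the brown fat gene Ucp1 at 8.74 to 263 FPKM and the haemoglobin gene Hbb-bs at 93.6 to 719 FPKM. Jag1, the targeted gene, had 9.86, 10.6 and 16.9 FPKM in wild-type and 13.5, 9.42 and 19.6 FPKM in EC-Jag1KO libraries. Its groups overlap, and a whole-tissue level also counts Jag1 from cells that keep the gene, so it does not check the deletion. By Xist, the RNA of the inactive X, and by Y-linked genes, the third library of each genotype is female and the other 4 are male, which the labels do not state. Differences are therefore also given within the male libraries (2 against 2) and within the single female pair. Because whole aorta was sequenced, fewer cells of a type and less RNA per cell cannot be told apart.

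Dkk3 was the most abundant of the 7 genes, at a mean of 180 FPKM over the 6 libraries, and Dkk2 was nearly silent at 0.395 FPKM. Between them lay Sfrp2 at 86.3, Sfrp4 at 62.2, Sfrp1 at 35.6, Frzb at 15.96 and Wif1 at 8.85 FPKM. Dkk3 exceeded Sfrp2 in 6 of 6 libraries, with ranges that did not meet, and so did Sfrp4 against Sfrp1 and Wif1 against Dkk2. The order of Sfrp2 and Sfrp4 held in 5 of 6 libraries, as did that of Frzb and Wif1, and the ranges of these neighbours overlapped. Sfrp1 exceeded Frzb in each library, though its lowest library (25.9 FPKM) lay under the highest of Frzb (30.3 FPKM). Of the summed FPKM of the 7 genes, Dkk3 made up 41.2% to 51.9% and Sfrp2 16.4% to 31.2%. The plot of FPKM by gene shows this order.

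**Figure D1:**
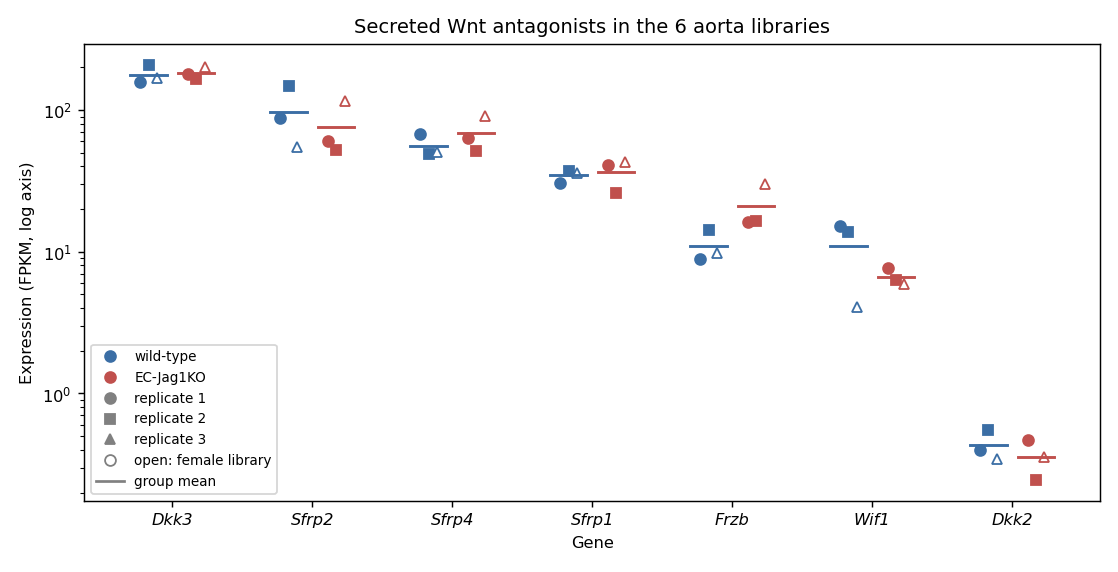
FPKM on a log axis for the 7 antagonists, ordered by mean level, with each library as a point (colour for genotype, shape for replicate number, open for female libraries) and bars for the group means (n = 3). Frzb is the gene whose 3 EC-Jag1KO points, 16.3 to 30.3 FPKM, all lie above its wild-type points, 8.83 to 14.1 FPKM.

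The question of the comparison was whether loss of Jagged1 from endothelium goes with a change in these genes. None of the 6 antagonists that reached a mean of 1 FPKM passed limma's moderated test on log2(FPKM + 1) at an adjusted p of 0.05 over all 12165 genes tested, where 0% of genes passed, and Dkk2 fell under the filter. At an unadjusted p under 0.05 there was 1 of 6, Frzb, on the higher side, where 4.25% of all tested genes lay, and 0 on the lower side, where 3.46% lay. Without both female libraries these counts were 0 higher and 2 lower, Sfrp2 and Wif1. Over all genes, in either direction, 938 of 12165 had such an unadjusted limma p with all 6 libraries and 1349 without both female ones. In that limma fit Sfrp2 had a log2 fold change of -1.01 (unadjusted p = 0.00769, adjusted p = 0.307) and Wif1 -0.96 (unadjusted p = 0.000387, adjusted p = 0.141). Frzb had 0.51 there (unadjusted p = 0.0544, adjusted p = 0.456 in limma). Frzb was also the only 1 of the 6 whose groups did not overlap, against 6.84% of all genes on that side and 13.6% on either side. Of the 6 log2 fold changes, 4 lay above 0 and 2 below, with a median of 0.044, and the median over all tested genes was -0.00022. They ran from -0.49 for Wif1 to 0.85 for Frzb.

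**Figure D2:**
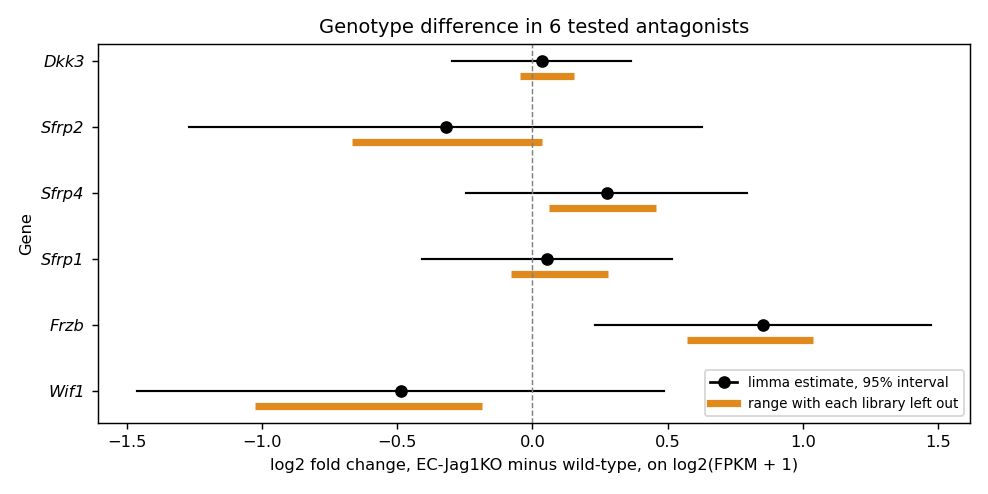
The log2 fold change (EC-Jag1KO minus wild-type, on log2(FPKM + 1)) of each tested antagonist, with limma's 95% interval in black and, in orange, the range of the estimate with each of the 6 libraries left out. Only the interval of Frzb, 0.23 to 1.47, lies off 0.

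Among the frizzled-related proteins, the largest log2 fold change over all 6 libraries was that of Frzb. Frzb (ENSMUSG00000027004, minus strand of chromosome 2, 80411970 to 80447625 in mm10) encodes a Wnt-binding protein first known from cartilage. Its wild-type libraries measured 8.83, 14.1 and 9.77 FPKM, against 16.3, 16.4 and 30.3 FPKM in EC-Jag1KO, on 657 to 2470 reads. Every EC-Jag1KO library was above every wild-type library, and EC-Jag1KO replicate 3, a female library, was far above the other 5. The means were 10.9 ± 2.8 and 21.0 ± 8.0 FPKM (SD, n = 3 each), a ratio of 1.92. The log2 fold change was 0.85 with an SE of 0.26 and a 95% interval from 0.23 to 1.47. Its unadjusted p was 0.0137 and its adjusted p over all genes 0.520 in limma, and the exact two-sided permutation p was 0.1, the smallest that 3 against 3 allows. Among all tested genes, 98 (0.806%) had a log2 fold change at least as high. Without EC-Jag1KO replicate 3 the log2 fold change was 0.57. In the male libraries the ratio was 1.43, and in the female pair it was 3.10. Summed smooth muscle markers (8 genes, 6 of them with a lower mean in EC-Jag1KO) were 14051 to 14753 FPKM in wild-type and 11779 to 13966 FPKM in EC-Jag1KO libraries, with the lowest sum in the library of highest Frzb. Mesothelial markers (5 genes, all with a higher mean in EC-Jag1KO) were near 0, at 0.135 to 0.271 and 0.605 to 0.942 FPKM. Among the EC-Jag1KO libraries their lowest sum, 0.605 FPKM, was in replicate 3, where Frzb was highest. The part of either marker set in the Frzb values was not tested.

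The Frzb promoter held a match to the core motif of RBPJ, the DNA-binding factor of the Notch pathway, and the site is shown because the study removed a Notch ligand. Windows from 250 bases before to 50 after the start site were in the RefSeq table (GRCm38.p6) for 4 of the 7 genes, Frzb, Sfrp2, Wif1 and Dkk2. GTGGGAA, searched on both strands, was found in 1 of these 4 windows and in 6.38% of the 32851 promoter windows of the table. The TCF/LEF core CTTTGAT was in 0 of the 4 and in 3.73% of all. The Frzb site begins 28 bases before the RefSeq start site, at chr2:80447418-80447424, which GENCODE M21 annotates as untranslated sequence of a Frzb transcript that starts further upstream. The 30 bases around it, chr2:80447406-80447435 on the minus strand, are shown with the motif in capitals.
Frzb site: tgtcggccgagGTGGGAAggcgcagctgcg
The match describes the letters of the window, and no binding was measured.

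Sfrp2 (ENSMUSG00000027996, plus strand of chromosome 3, 83766321 to 83774316), a Wnt-binding protein also made by activated fibroblasts, varied most within groups among the abundant members. It measured 88.2, 147 and 55.0 FPKM in wild-type aorta, against 60.4, 52.0 and 115 FPKM in EC-Jag1KO aorta. Wild-type replicate 2 and EC-Jag1KO replicate 3 were the highest of all 6, so the groups overlap broadly. The means were 96.7 ± 46.5 and 75.97 ± 34.5 FPKM (n = 3 each), with a log2 fold change of -0.32 and an interval from -1.27 to 0.63 (limma adjusted p = 0.896; exact permutation p = 0.6). Without wild-type replicate 2 the log2 fold change was 0.034, on the other side of 0, and leaving out the female library of either genotype gave -0.67 (wild-type) and -0.66 (EC-Jag1KO). Within male libraries both EC-Jag1KO values lay below both wild-type values, a ratio of 0.478, and in the female pair the ratio was 2.10. Summed white adipocyte markers (6 genes) were 264 FPKM in wild-type replicate 2, where Sfrp2 was highest, and 715 to 1614 FPKM in the other 5 libraries. The lowest of those 5 was EC-Jag1KO replicate 3, the library with the second highest Sfrp2. Their part in the Sfrp2 values was not tested. Adventitial fibroblast markers (8 genes) summed to 1429 FPKM in the first of these libraries, the highest of 6, and to 1125 FPKM in the second, the lowest.

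Sfrp4 (ENSMUSG00000021319, plus strand of chromosome 13, 19623175 to 19632821), another secreted Wnt-binding protein, had 68.3, 48.6 and 50.3 FPKM in wild-type and 64.0, 51.6 and 90.2 FPKM in EC-Jag1KO libraries. EC-Jag1KO replicate 3 was the highest and the other 5 were intermixed. The log2 fold change of Sfrp4 was 0.27 with an interval from -0.24 to 0.79 (limma adjusted p = 0.826). It was 0.061 without EC-Jag1KO replicate 3. The ratio was 0.989 in male libraries and 1.79 in the female pair.

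Sfrp1 (ENSMUSG00000031548, plus strand of chromosome 8, 23411502 to 23449632), which also binds Wnt proteins, had 30.7, 37.2 and 35.8 FPKM in wild-type and 41.0, 25.9 and 43.2 FPKM in EC-Jag1KO libraries. The EC-Jag1KO libraries held both the highest values and the lowest. The log2 fold change of Sfrp1 was 0.054 with an interval from -0.41 to 0.51 (limma adjusted p = 0.970), and its sign changed with the library left out. The ratio was 0.985 in male libraries and 1.21 in the female pair.

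Wif1 (ENSMUSG00000020218, plus strand of chromosome 10, 121033960 to 121100650), Wnt inhibitory factor 1, was the member with the lowest log2 fold change. It had 15.2, 13.9 and 4.05 FPKM in wild-type and 7.66, 6.33 and 5.95 FPKM in EC-Jag1KO libraries, on 239 to 823 reads. The 2 male wild-type libraries were highest and the female wild-type library was the lowest of all, with the EC-Jag1KO libraries close together in between. The means were 11.04 ± 6.1 and 6.65 ± 0.90 FPKM (n = 3 each). The log2 fold change was -0.49 with an interval from -1.46 to 0.49 (limma adjusted p = 0.837; exact permutation p = 0.4), and 1.82% of all genes lay at least as low. Without wild-type replicate 3 the log2 fold change was -1.03, with an unadjusted p of 0.000191 and an adjusted p of 0.194 in limma, and it was -0.19 without wild-type replicate 1 and -0.25 without wild-type replicate 2. The ratio was 0.481 in male libraries and 1.47 in the female pair.

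Summed chondrocyte markers (9 genes, 4 with a lower and 4 with a higher mean in EC-Jag1KO, and Cnmd at 0) were lower beside Wif1, at 24.6 to 63.7 FPKM in wild-type and 15.1 to 21.1 FPKM in EC-Jag1KO libraries. Most of that sum was Comp, the cartilage oligomeric matrix protein gene. Comp measured 56.4, 37.7 and 21.5 FPKM in the wild-type libraries and 11.96, 16.5 and 14.8 FPKM in the EC-Jag1KO ones. Wild-type replicate 3 was above every EC-Jag1KO library for Comp and below every one for Wif1. The defining cartilage gene Col2a1 was at 0 to 0.109 FPKM and Cnmd was listed at 0 in every library. The part of these markers in the Wif1 values was not tested.

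**Figure D3:**
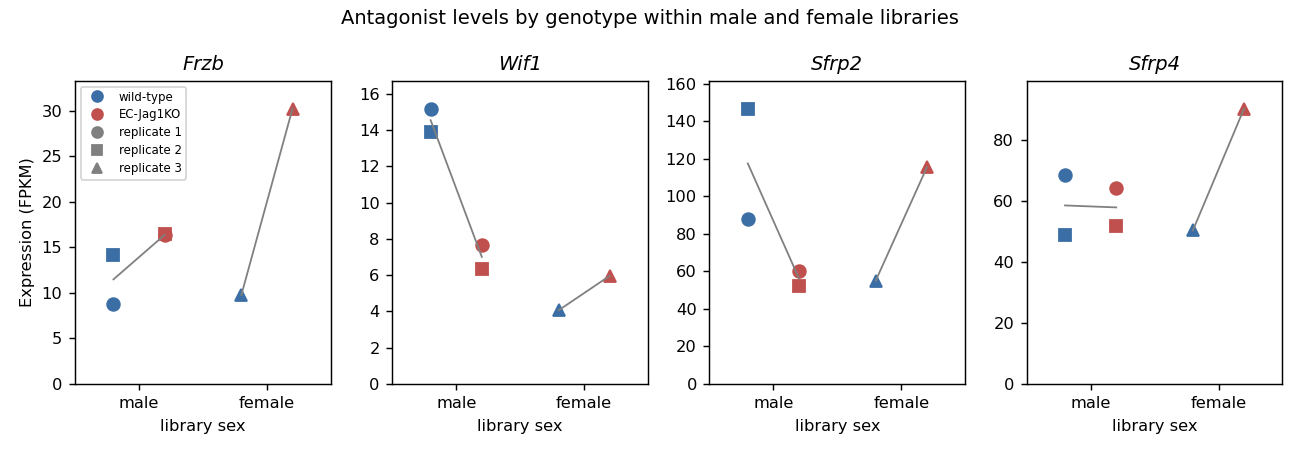
FPKM of Frzb, Wif1, Sfrp2 and Sfrp4 by genotype within the 4 male and the 2 female libraries, with each library as a point (shape for replicate number) and grey lines joining the genotype means. Frzb is higher in EC-Jag1KO in both sexes (ratios 1.43 and 3.10), while Wif1 and Sfrp2 are lower in male EC-Jag1KO libraries and higher in the female one.

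The ratio of EC-Jag1KO to wild-type was above 1 in the female pair for 7 of 7 antagonists and in male libraries for 1, Frzb. For Dkk2 the female ratio was 1.02, on 33 reads in wild-type and 34 in EC-Jag1KO. How many of all tested genes share these directions was not counted, so both counts only describe these libraries. The female pair is 1 library of each genotype. Sfrp2 and Wif1 were the 2 of 7 antagonists in which the male groups were separate and the female pair lay the other way, an arrangement found in 22.6% of all tested genes. In limma's interaction of genotype and library sex, which 4 of all genes passed (0.0329%), neither passed.

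The Dickkopf genes held both ends of the range of levels, and neither separated the genotypes. Dkk3 (ENSMUSG00000030772, minus strand of chromosome 7, 112116019 to 112159057) had 158, 209 and 167 FPKM in wild-type and 179, 165 and 199.8 FPKM in EC-Jag1KO libraries. Its highest library was 1.32 times its lowest, against 3.75 times for Wif1 and 3.43 times for Frzb. The means were 178 ± 27 and 181 ± 18 FPKM (n = 3 each), with a log2 fold change of 0.034 and an interval from -0.30 to 0.36 (limma adjusted p = 0.974). Its ratio was 0.939 in male libraries and 1.197 in the female pair. Dkk2 (ENSMUSG00000028031, plus strand of chromosome 3, 132085292 to 132180293) had 0.401, 0.549 and 0.348 FPKM in wild-type and 0.4698, 0.245 and 0.355 FPKM in EC-Jag1KO libraries. These values rest on 18 to 51 reads, and the groups overlap. The ratio of the Dkk2 means was 0.824 (exact permutation p = 0.5), with 0.752 in male libraries and 1.02 in the female pair. With no filter on low values its log2 fold change on log2(FPKM + 1), a scale that understates changes at this level, was -0.079, with an interval from -0.30 to 0.15.

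Summed over the 7 genes, the antagonists stood at 369, 470 and 322 FPKM in wild-type and 369, 317 and 485 FPKM in EC-Jag1KO libraries. The sum was highest in wild-type replicate 2 and EC-Jag1KO replicate 3 and did not separate the genotypes (387 ± 75 and 391 ± 86 FPKM, n = 3 each). The ratio of Frzb to Wif1 was 0.582, 1.02 and 2.41 in wild-type and 2.13, 2.59 and 5.08 in EC-Jag1KO libraries. Those groups overlap through the female wild-type library.

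Genes whose profile over the 6 libraries lay nearest to each antagonist were found among 8056 protein-coding genes averaging 5 FPKM or more, by the root mean square distance of centred log2(FPKM + 1). With 6 libraries and this many candidates, a small distance is a description of these libraries. Nearest to Frzb were Sema5a, a semaphorin gene, at a distance of 0.20 and Fbln5, which encodes an elastic fibre protein, at 0.22. Frzb itself deviated from its own mean by 0.55. Fbln5 had 107, 130 and 104 FPKM in wild-type and 181, 190 and 226 FPKM in EC-Jag1KO libraries. Nearest to Wif1 were Susd2, at 0.19, and Id2, a helix-loop-helix inhibitor of transcription, at 0.20, where Wif1 itself deviated by 0.60. Id2 had 121, 113 and 55.7 FPKM in wild-type and 66.6, 62.5 and 61.8 FPKM in EC-Jag1KO libraries. The female wild-type library was thus the lowest for Id2 as well as for Wif1. Nearest to Sfrp2 were Adamtsl3, at 0.28, and Fn1, the fibronectin gene, at 0.29, where Sfrp2 itself deviated by 0.56. Sfrp1 lay nearest to Sik1 (0.053) and Zeb2 (0.068), Sfrp4 to Dennd4c (0.092) and F13a1 (0.10), and Dkk3 to Tes (0.038) and Hyal1 (0.039). Their own deviations were also smaller than those of Frzb, Wif1 and Sfrp2, at 0.24 for Sfrp1, 0.31 for Sfrp4 and 0.15 for Dkk3.

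**Figure D4:**
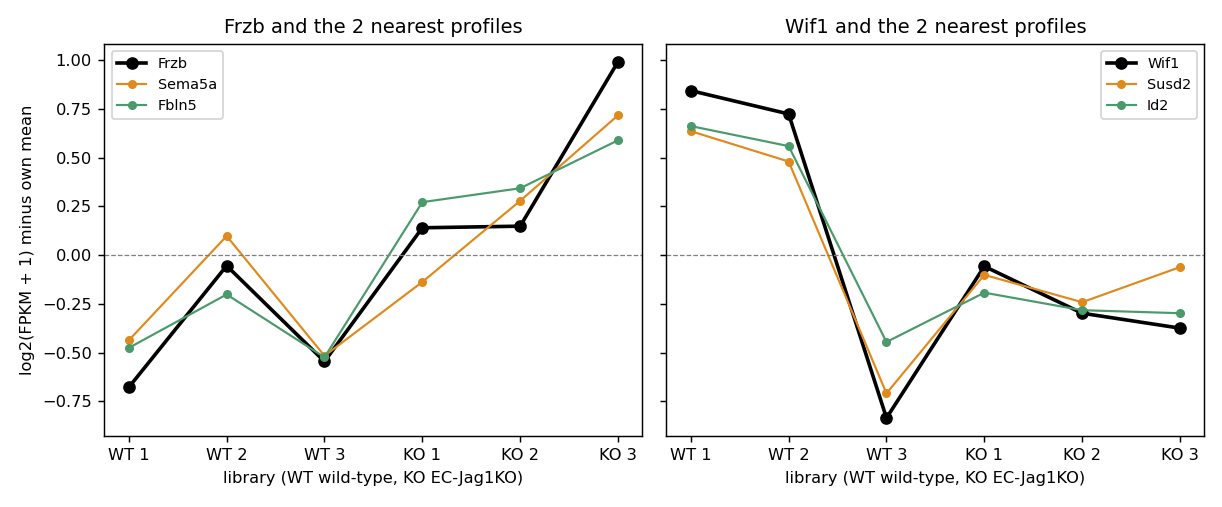
Centred log2(FPKM + 1) of Frzb and Wif1 and of their 2 nearest genes in each library, where lines only join the points of a gene. Frzb, Sema5a and Fbln5 are highest in EC-Jag1KO replicate 3, and Wif1, Susd2 and Id2 are lowest in wild-type replicate 3.

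In the rest of the pathway, 0 of 67 tested genes from 7 lists (103 genes listed and matched) passed the limma test over all genes, with adjusted p of 0.402 or more. Unadjusted, 2 higher and 6 lower genes had p under 0.05, 11.9% of the 67 against 7.71% of all tested genes. The groups did not overlap in 3 genes on the higher side and 9 on the lower, 4.48% and 13.4% of the 67, where 6.84% and 6.73% of all genes did not. The median log2 fold change was -0.046. Genes described below are the 3 most abundant of each list, not those that moved.

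Among 16 other inhibitors, of which 6 were tested, Sost was more abundant than any of the 7 antagonists. Sost encodes sclerostin, a secreted protein that binds Lrp5 and Lrp6. It had 755, 724 and 560 FPKM in wild-type and 464, 609 and 375 FPKM in EC-Jag1KO libraries, and the groups overlap. The means of Sost were 680 ± 104 and 483 ± 118 FPKM (n = 3 each). Its log2 fold change was -0.51, with an interval from -0.997 to -0.02 (limma adjusted p = 0.633). The summed smooth muscle markers given beside Frzb were lower as well, and their part in the Sost values was not tested. Igfbp4, a growth factor binding protein that also binds Wnt receptors, had a log2 fold change of 0.092, and Trabd2b, a protease that inactivates Wnt proteins, 0.20. The median of the list was 0.070.

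Of 19 Wnt ligands 7 were tested, and none was abundant. Wnt16 stood at 10.4 ± 1.6 and 8.94 ± 3.6 FPKM, Wnt9a at 9.32 ± 0.47 and 8.04 ± 1.3 FPKM and Wnt5a, a ligand of beta-catenin-independent signalling, at 6.70 ± 0.80 and 7.005 ± 0.83 FPKM (wild-type and EC-Jag1KO, n = 3 each). All 3 lay far below Dkk3, and the median log2 fold change of the ligands was -0.067.

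Of 16 receptors and co-receptors 13 were tested. Fzd1 had 43.4, 46.0 and 47.7 FPKM in wild-type and 36.6, 30.4 and 39.8 FPKM in EC-Jag1KO libraries, and Fzd7 had 34.9, 37.9 and 40.0 against 27.0, 31.9 and 33.6 FPKM. In both of these Wnt receptor genes the groups do not overlap. The log2 fold changes were -0.36 and -0.28, with limma adjusted p of 0.544 and 0.625. Fzd2 overlapped, at 45.7 ± 10.3 and 39.3 ± 0.91 FPKM. Over the list 6 genes lay above 0 and 7 below, with a median of -0.042.

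Among 7 tested genes of Wnt secretion and R-spondin signalling, Lgr6, an R-spondin receptor, stood at 61.6 ± 3.6 and 60.8 ± 11.9 FPKM. Wls, which carries Wnt proteins to the cell surface, had 62.9, 63.0 and 57.9 FPKM in wild-type and 54.9, 49.3 and 57.1 FPKM in EC-Jag1KO libraries, a log2 fold change of -0.19 (limma adjusted p = 0.706). Lgr4 had a log2 fold change of 0.17. In the beta-catenin cascade, with 18 of 21 genes tested, Ctnnb1, the beta-catenin gene, stood at 225 ± 8.8 and 198 ± 19 FPKM. Bcl9l, a beta-catenin coactivator, stood at 34.3 ± 0.37 and 30.3 ± 1.0 FPKM. Neither Ctnnb1 nor Bcl9l overlapped between groups, with limma adjusted p of 0.760 and 0.672. Csnk1a1, a kinase that marks beta-catenin for decay, had a log2 fold change of 0.033.

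Canonical targets of the pathway lay on both sides. Of 17 listed genes 9 were tested, 5 above 0 and 4 below, with a median log2 fold change of 0.042. Nkd1, a feedback inhibitor induced by Wnt signalling, stood at 29.05 ± 2.4 and 24.2 ± 0.25 FPKM, a log2 fold change of -0.25 (limma adjusted p = 0.607). Apcdd1, a membrane inhibitor that is also a target, stood at 10.4 ± 2.1 and 7.14 ± 0.63 FPKM, a log2 fold change of -0.47 (limma adjusted p = 0.524). Bmp4 had a log2 fold change of 0.068. Of the 12 planar polarity genes 9 were tested, with 8 below 0 and a median of -0.11. The most abundant of them, Daam1, Scrib and Prickle1, differed by 0.11, -0.17 and -0.11 on the log2 scale, and each interval includes 0.

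**Figure D5:**
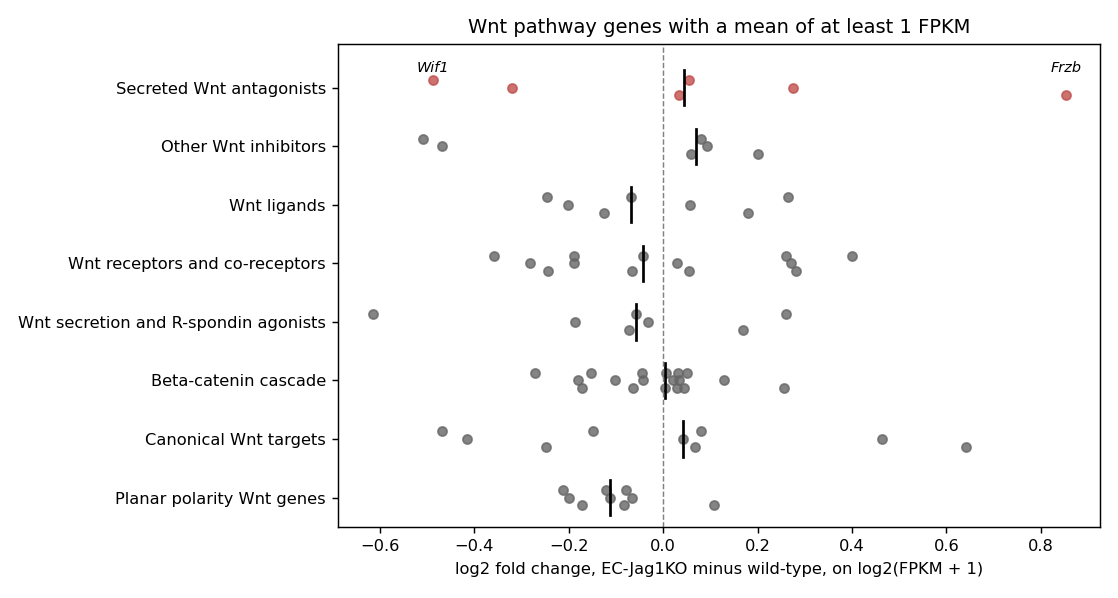
The log2 fold change (EC-Jag1KO minus wild-type) of each tested gene in the antagonist set, in red, and in the 7 other Wnt lists, in grey, with a black bar for each median. Frzb, at 0.85, lies above every other gene plotted, and the medians lie between -0.11 and 0.070.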

How the data were processed

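Total RNA of mouse aorta was sequenced in 6 libraries. The authors deposited FPKM values for 35275 genes, with gene lengths and coordinates per the file headers. The submitters' processing notes list mm10, STAR, HTSeq and edgeR without versions or roles, and no source used here gives the annotation release or strand setting. Of the 211650 values, 100% were whole multiples of 1 read (within 0.05), which gave the depth.

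The 12165 genes averaging 1 FPKM or more were tested as log2(FPKM + 1), so fold changes understate those of low genes, with limma 3.58.1 in R 4.3.3 (genotype only, variance trend, two-sided, Benjamini-Hochberg over all tested genes). A script was tested on simulated data. FPKM of single genes were compared by an exact permutation test of 20 splits. The members and lists were chosen with earlier results of these data known. Named genes were the members, Jag1, the 3 most abundant of each Wnt list and the 2 nearest profiles of each tested member. Cell type markers were summed for more lists than are shown, and no rule set which list appears beside which gene. Alternatives covered the pseudocount, filter, scaling, variance model, weights, replicate block, sex, recovered reads and libraries left out. The interaction of genotype and sex was added after seeing the data.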

Additional observations from a re-analysis of the deposited data

Results flagged for a closer look

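The genotype difference of Wif1 and of Sfrp2 ran in opposite directions in male and female libraries. In Wif1 both male EC-Jag1KO libraries (7.66 and 6.33 FPKM) were below both male wild-type libraries (15.2 and 13.9 FPKM), while the female pair went from 4.05 to 5.95 FPKM. The interaction, female minus male on the log2 scale, was 1.42 for Wif1, with an interval from 0.87 to 1.98, an unadjusted p of 0.000928 and an adjusted p of 0.126 over all genes in limma. For Sfrp2 it was 2.06, with an interval from 0.997 to 3.13, an unadjusted p of 0.00364 and an adjusted p of 0.161. Neither passed the adjusted threshold, and 15.3% of all tested genes had an unadjusted interaction p under 0.05. Frzb was among these, with an interaction of 1.03 (unadjusted p = 0.0328, adjusted p = 0.287 in limma). Each genotype has 1 female library, so sex and that library cannot be told apart, and the spread behind these intervals and p-values comes from the male libraries and from limma's moderation over genes. The test was added after the pattern had been seen in these libraries, so its unadjusted p-values are a description. The same arrangement, separated male groups with the female pair the opposite way, was found in 22.6% of all 12165 tested genes.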

How the results depend on the processing

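Wif1 kept its direction and stayed above the adjusted threshold in each of 18 alternatives, and Frzb kept its direction in 18 and passed in 1, limma with array weights (log2 fold change 0.62, adjusted p = 0.0419). That setting called 1 antagonist and 1647 genes, where EC-Jag1KO replicate 1 was weighted 14.7. The number of genes called was 1 with sex as a covariate, 2 without both female libraries and 0 to 4 with each library left out, where the antagonists and the other Wnt genes gave 0 to 0. With each library left out, log2 fold changes ran from 0.57 to 1.04 for Frzb, -1.03 to -0.19 for Wif1, -0.67 to 0.034 for Sfrp2, 0.061 to 0.46 for Sfrp4, -0.078 to 0.28 for Sfrp1 and -0.046 to 0.15 for Dkk3. Without both female libraries they were -0.051 for Sfrp1, -0.0038 for Sfrp4, -0.078 for Dkk3, -1.01 for Sfrp2, -0.96 for Wif1 and 0.51 for Frzb. The cause of these sign changes was not tested. Deviations from the group means correlated at 0.055, 0.051 and -0.050 for same-numbered libraries. Differently numbered ones ran from -0.24 to 0.19. Whether equal numbers share a litter or day is not stated, and these correlations cannot decide it. The replicate block gave 0 genes, and Frzb had an adjusted p of 0.586. Dkk2 rests on few reads.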

Other observations

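Some less abundant Wnt genes were chosen here after their values were seen, and none passed the adjusted threshold in limma. Myc, a growth regulator and Wnt target, had 1.84, 1.37 and 1.56 FPKM in wild-type and 2.39, 3.07 and 3.73 FPKM in EC-Jag1KO libraries, a log2 fold change of 0.64 (unadjusted p = 0.00492, adjusted p = 0.402). Nkd2, a feedback inhibitor related to Nkd1, stood at 1.68 ± 0.17 and 2.72 ± 0.52 FPKM (n = 3 each), while Nkd1 lay the other way. Rspo1, an R-spondin that strengthens Wnt signalling, stood at 1.98 ± 0.65 and 0.929 ± 0.29 FPKM, with groups that overlap. Ror2, a receptor for Wnt5a, stood at 1.198 ± 0.18 and 1.67 ± 0.13 FPKM, with groups that do not overlap.

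With genotype as the other term, Wif1 had a log2 difference of -0.91 between female and male libraries (unadjusted p = 0.0230, adjusted p = 0.592 in limma). Of all tested genes, 7.89% had an unadjusted p under 0.05 for this term. The Wif1 gap was wide in wild-type (4.05 FPKM in the female library against 15.2 and 13.9). It was narrow in EC-Jag1KO (5.95 FPKM against 7.66 and 6.33). With 1 female library per genotype, a gap that differs by genotype cannot be told from a difference between single libraries. For the other 5 tested antagonists the log2 difference between female and male libraries lay between -0.0025 and 0.33.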
